A study of Mus musculus with 8 samples.

Results

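The genes described here are those whose symbols name them as members of the growth factor, Wnt, Notch and guidance signaling families: fibroblast growth factors (Fgf) and their receptors, bone morphogenetic proteins (Bmp) and transforming growth factor beta (Tgfb) with their receptors and SMADs, Wnts with Frizzled (Fzd) and Lrp genes, Notch and its ligands, Eph receptors and ephrins, semaphorins and plexins, and Gfra, Axin and Dishevelled (Dvl) genes. They were picked by symbol alone, with no measured value, and 67 of the 5736 genes of the table matched. The annotation of the mm9 genome holds 176 symbols of this form, and those outside the table were not analysed here. All 8 libraries came from mice of the strain CD1:Uchl1-eGFP, in which the *Uchl1* promoter drives EGFP, a transgene first made to label motor neurons that also marks germ cells. Every pup had been dosed orally with bis-(dichloroacetyl)-diamine, a blocker of retinoic acid (RA) synthesis, at 100 µg per g of body weight from postnatal day (P)1, with the last day given as P10 in one description and P11 in another. The 2 Aal libraries were undifferentiated spermatogonia negative for STRA8 and KIT, collected before RA was given. The 3 A1 libraries were differentiating spermatogonia taken a day after 10 µl of RA at 10 µg/µl had been injected under the skin at P11, and the 3 A3 libraries were later differentiating spermatogonia of the same treatment, whose time of collection is not given in the labels. EGFP+ cells were sorted by flow cytometry from pooled testes of at least 5 pups of a litter, so 1 library stands for a pool and not for an animal.

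These families carry short-range messages between cells. Ligands of the FGF, BMP and Wnt families are secreted, and bind receptors that pass the signal to kinases, SMADs or beta-catenin. Notch ligands and ephrins stay on the membrane and act on the touching cell, while semaphorins act on plexins and are best known for steering axons. In the testis, GDNF and FGFs from somatic cells sustain undifferentiated spermatogonia through RET and FGF receptors, and BMP and RA signals accompany differentiation. Some genes share a name but not this role: *Fgfr1op* and *Fgfr1op2* encode partners of FGFR1 fusion proteins rather than receptors, *Bmp1* is a secreted metalloprotease, *Bmp2k* is a kinase, *Tgfb1i1* is a focal adhesion adaptor, *Fgf13* encodes an intracellular protein that binds sodium channels, and of the Lrp genes here only *Lrp6* is a classical Wnt co-receptor.

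Promoter sequences are shown for *Ephb4*, with the highest log2(FPKM + 1) difference of the signaling genes tested in A1 against Aal, *Plxnb1*, with the lowest of those tested in A3 against Aal, and a gene whose A1 libraries lay above all others (*Dll1*, at 1 of its 2 listed starts). Each is the 250 bases before a RefSeq transcription start in build GRCm38.p6, read 5′ to 3′ on the gene's strand, with capitals marking the GC box GGGCGG and the letters bound by one retinoic acid receptor subunit (a half-site, searched as AGGTCA, as AGTTCA, as GGGTCA or as GGTTCA), each on either strand. The windows lie at chr5:137349859-137350108 on the plus strand for *Ephb4*, at chr9:109095186-109095435 on the plus strand for *Plxnb1*, and at chr17:15375824-15376073 on the minus strand for *Dll1*.
Ephb4: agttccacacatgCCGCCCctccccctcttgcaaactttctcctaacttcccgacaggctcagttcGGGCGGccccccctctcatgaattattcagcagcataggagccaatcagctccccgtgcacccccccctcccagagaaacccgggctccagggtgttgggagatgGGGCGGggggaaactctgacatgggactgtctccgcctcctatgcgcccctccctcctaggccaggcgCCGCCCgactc
Plxnb1: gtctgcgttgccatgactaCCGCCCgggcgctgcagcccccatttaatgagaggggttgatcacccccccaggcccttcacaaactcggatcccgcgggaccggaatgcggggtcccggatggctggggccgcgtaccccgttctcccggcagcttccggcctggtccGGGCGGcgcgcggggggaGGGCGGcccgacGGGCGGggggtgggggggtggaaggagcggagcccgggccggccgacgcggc
Dll1: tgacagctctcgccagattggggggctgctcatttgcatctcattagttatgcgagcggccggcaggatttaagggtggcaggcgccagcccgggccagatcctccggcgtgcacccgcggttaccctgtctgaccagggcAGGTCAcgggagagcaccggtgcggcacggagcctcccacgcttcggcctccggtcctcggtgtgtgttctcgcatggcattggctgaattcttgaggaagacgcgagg
The *Ephb4* and *Plxnb1* windows each hold 4 GC boxes and 0 half-sites, and the *Dll1* window holds 0 GC boxes and 1 half-site. The window of the other *Dll1* start holds 0 of either. RefSeq gave 71 such windows for 53 of the 67 genes. A GC box stood in 71.8% of these windows, against 32.7% of all 32851 windows of the same length. A half-site stood in 28.2% against 38.6%, and the TATA box TATAAA in 4.23% against 12.4%. The median GC content was 64.8% against 52.4%. A pair of half-sites spaced by 5 bases, the classical RA response element, were in 0 of the 71 windows and in 0.0883% of all. These counts are of letters only and say nothing of binding.

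Expression was measured as FPKM, reads scaled by the length of the gene and the depth of the library, which allows levels to be compared between genes. The libraries held between 18276164 and 27316451 reads, of which 34.0% to 34.4% fell on genes of the table. Germ cell genes were high in every library, with *Dazl* at 303 to 437 FPKM. Of 8 undifferentiated markers in the table the summed level was 328 and 374 FPKM in Aal, 62.9 to 106 in A1 and 67 to 75.5 in A3. These markers include *Ret*, *Etv5* and *Id4*, which also appear below as pathway partners, so their falls there are not separate from this sum. Somatic RNA was not constant: the 9 of 20 listed Sertoli cell markers that are in the table summed to 39.7 and 26.1 FPKM in Aal, to 57.6, 56.1 and 388 in A1-1, A1-2 and A1-3, and to 384, 281 and 204 in A3, and none of the 9 was at 0. A1-3 also had the highest sums of Leydig cell, peritubular myoid cell and macrophage markers. The sum of the 4 of 8 listed endothelial markers in the table went the other way. It was 7.84 and 8.94 FPKM in Aal, 4.87 to 6.45 in A1 and 2.61 to 2.99 in A3, and none was at 0. The markers themselves differed. Means in Aal, A1 and A3 were 5.15, 3.23 and 1.26 FPKM for *Cdh5* and 1.96, 0.560 and 0.562 for *Kdr*. They were 1.13, 1.31 and 0.670 for *Tek*, and 0.154, 0.354 and 0.340 for *Esam*, which was lowest in Aal. The part of endothelial RNA in the falls of *Plxnb1*, *Bmp4*, *Bmpr1b* and *Lrp1* was not tested. In sorted pools, fewer cells of a type and less RNA per cell cannot be told apart.

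By mean over the 8 libraries, 16 of the 67 genes reached 10 FPKM, 45 reached 1 FPKM and 22 stayed below 1 FPKM. The most abundant of each family were *Fgfr1op* at 43.1 FPKM, the BMP type I receptor *Bmpr1a* at 32.0, the Dishevelled gene *Dvl3* at 23.5, the semaphorin receptor *Plxnb1* at 19.8, the signal transducer *Smad2* at 19.4, the Wnt co-receptor *Lrp6* at 19.0, the ephrin receptor *Ephb4* at 18.5, *Sema7a* at 12.2 and *Fgf13* at 11.1. Those of the other families were lower, with *Bmp2k* at 7.94 FPKM, the Notch ligand *Jag1* at 6.64, the receptor *Notch1* at 6.52, the Frizzled receptor *Fzd10* at 4.87, the ephrin *Efna1* at 3.86, the Wnt ligand *Wnt9a* at 1.92 and the GDNF family co-receptor *Gfra2* at 0.813. All 7 Wnt ligands stayed below 2 FPKM on average.

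**Figure D1:**
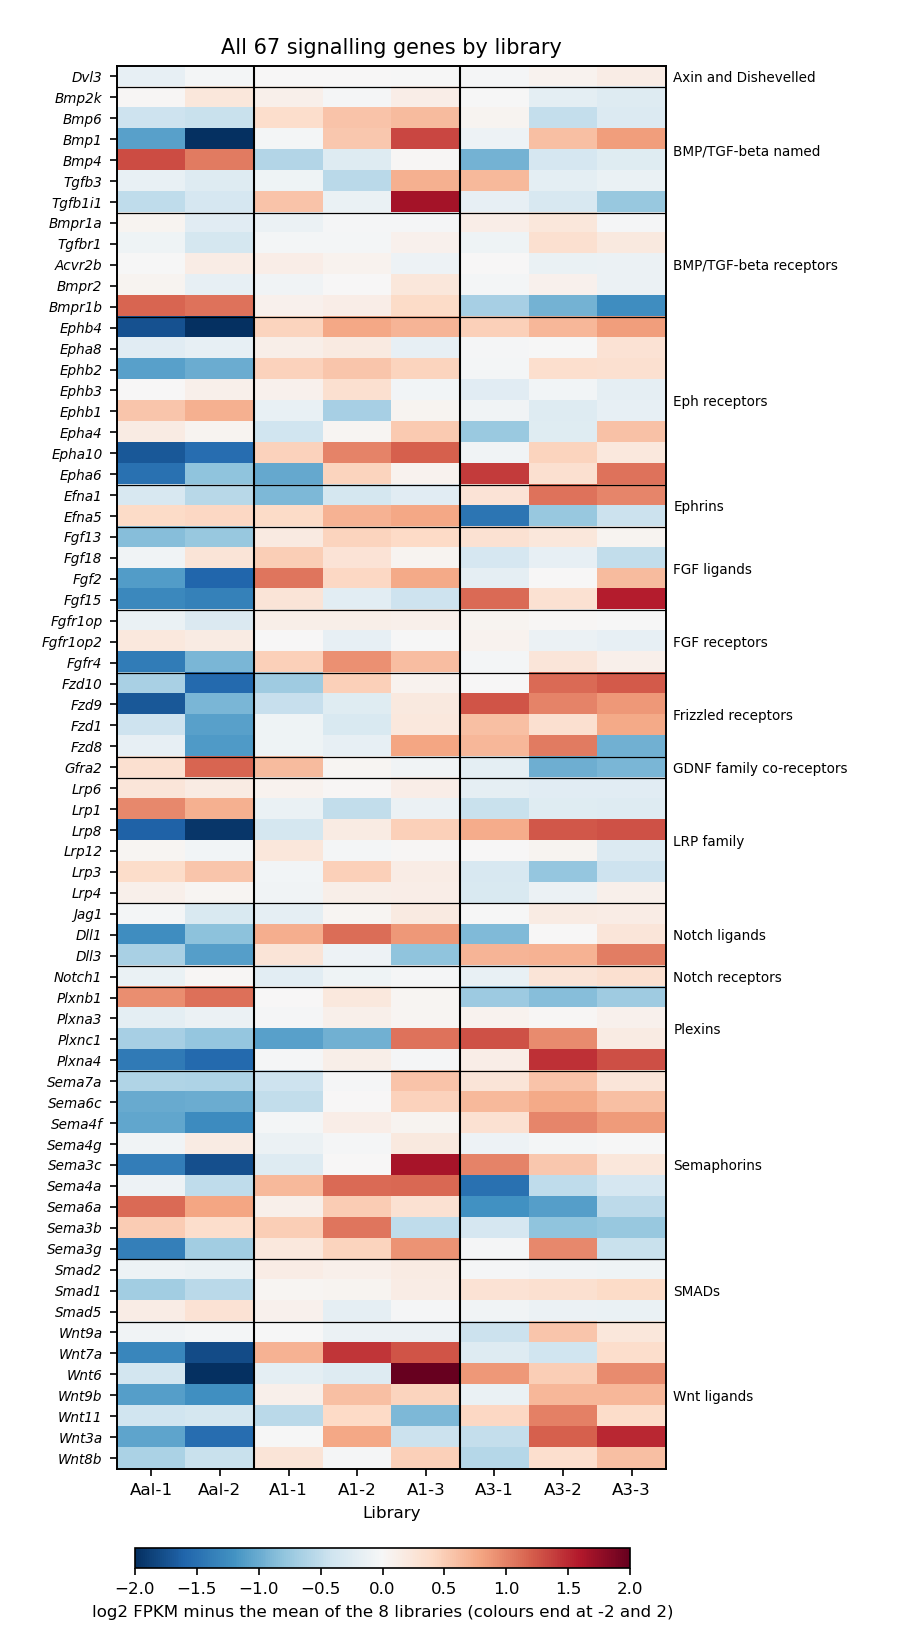
Heatmap of the 67 signaling genes (rows, grouped by family) in the 8 libraries (columns), colored by log2 FPKM minus the gene's mean over the 8 libraries, with colors ending at -2 and 2. *Plxnb1*, *Bmp4*, *Bmpr1b* and *Lrp1* are high in Aal, *Ephb4*, *Ephb2* and *Fgf13* are low in Aal alone, *Dll1*, *Wnt7a* and *Sema4a* are highest in A1, and *Wnt6* and *Sema3c* stand out in A1-3.

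The comparisons ask which of these genes differ between undifferentiated spermatogonia and those a day after RA (A1 against Aal), as differentiation proceeds (A3 against A1), and over both steps (A3 against Aal). A1 was also collected later than Aal, after dosing with the inhibitor had ended, and no group went without RA at that age. RA, age and the end of the inhibitor cannot be told apart. The comparisons share libraries, so their results are not independent of each other. Values were tested with limma as log2(FPKM + 1), across every gene with at least 1 FPKM in at least 2 of the libraries compared, with Benjamini-Hochberg adjustment over all of them. Calls needed both an adjusted p no higher than 0.01 and a log2 fold change beyond 1 in either direction. Log2 fold changes below are on this scale, which understates the change of genes at low FPKM. In A1 against Aal, 6 of 46 signaling genes tested were called (13%, against 9.15% of all genes tested), 5 of them higher and 1 lower (4.19% and 4.97% of all genes). In A3 against A1, 0 of 47 were called (against 1.5% of all genes, 0.479% higher and 1.02% lower). An unadjusted p under 0.05 in limma was held by 17 of the 47, and by 1562 of all 4590 genes tested. With limma voom on the recovered reads 3 of the 47 were called (against 4.34% of all genes). In A3 against Aal, 13 of 45 were called (28.9%, against 17.6%), 9 higher and 4 lower (7.87% and 9.69% of all genes). The median log2 fold change of the signaling genes was 0.16, -0.05 and 0.20 in the 3 comparisons, against 0.03, 0.01 and 0.05 over all genes tested. In total 16 signaling genes were called at least once, and 19 were tested in no comparison. A gene that passed the filter through 1 group alone had to differ. This held for *Bmp1*, *Fgfr4*, *Sema3c*, *Sema4a* and *Wnt7a* in A1 against Aal. In A3 against A1 it held for *Bmpr1b*, *Sema4a* and *Wnt7a*, and *Bmpr1b* and *Sema4a* were among the 3 that limma voom called. In A3 against Aal it held for *Bmp1*, *Bmpr1b*, *Fgfr4*, *Fzd9*, *Plxnc1* and *Sema3c*, of which 4 were called. The counts above thus describe the genes that could be tested and support no statement about the families.

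**Figure D2:**
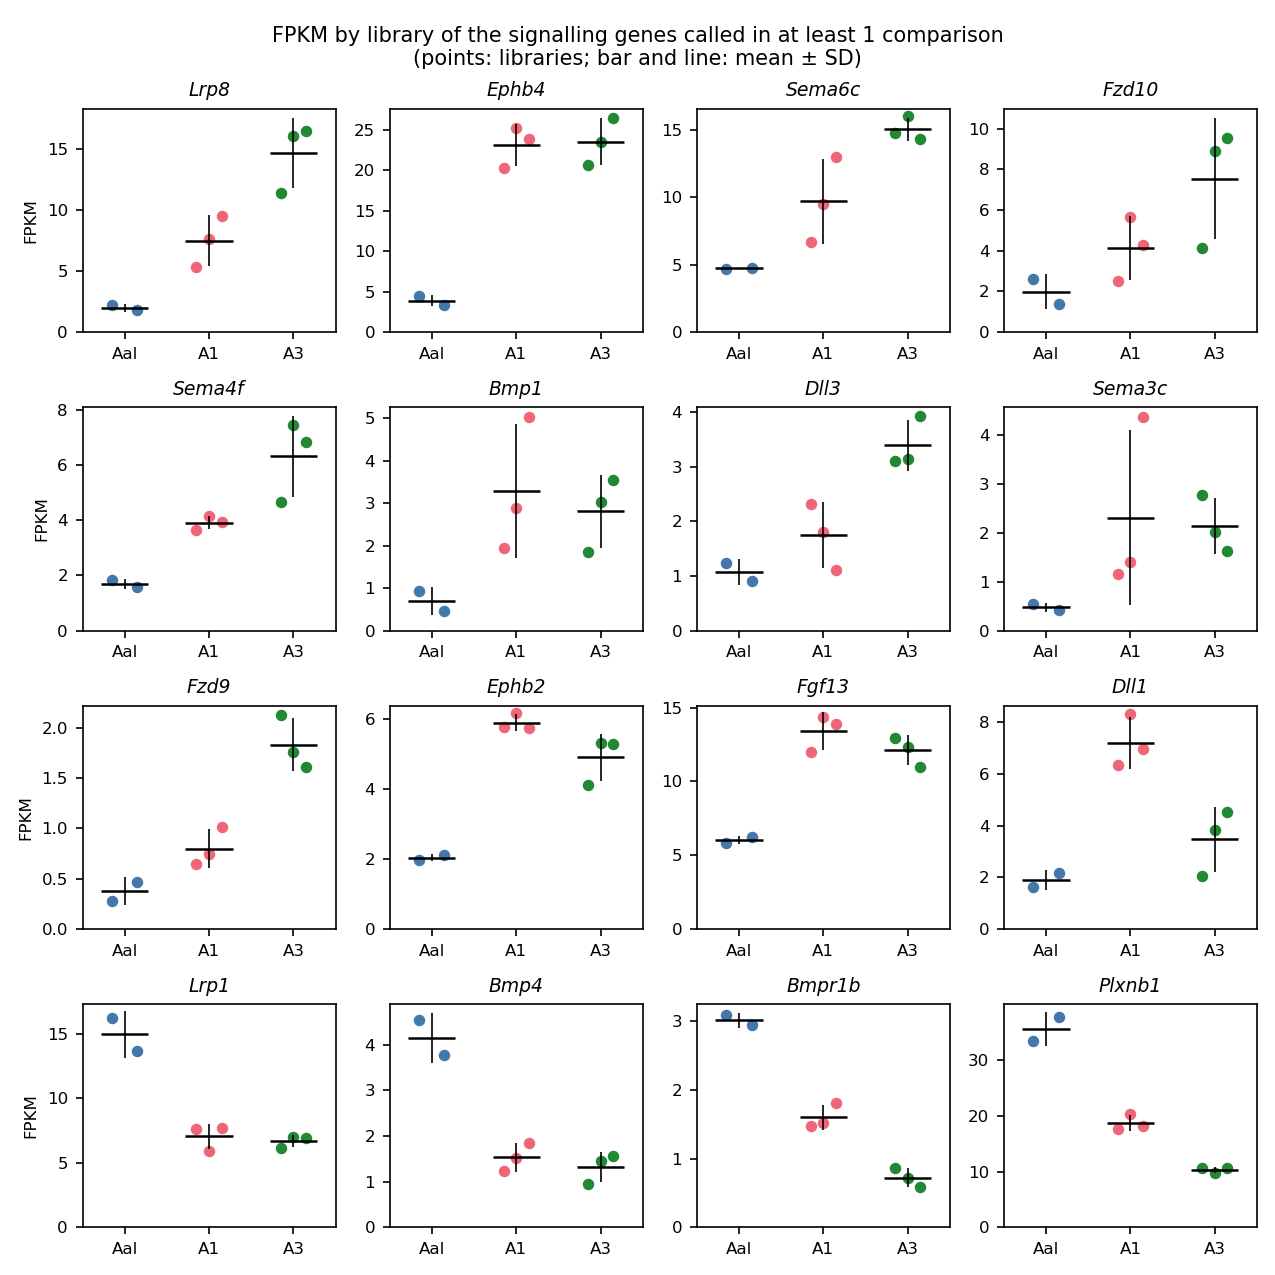
FPKM in each library (points) of the 16 signaling genes called at least once, by stage, with the mean ± SD of each group (2 Aal, 3 A1 and 3 A3 libraries) and axes starting at 0. *Ephb4* is at 3.39 and 4.42 FPKM in Aal and at 20.2 or more in all A1 and A3 libraries, *Lrp8* steps up at both stages, *Dll1* peaks at A1, and *Plxnb1* steps down at both.

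**Figure D3:**
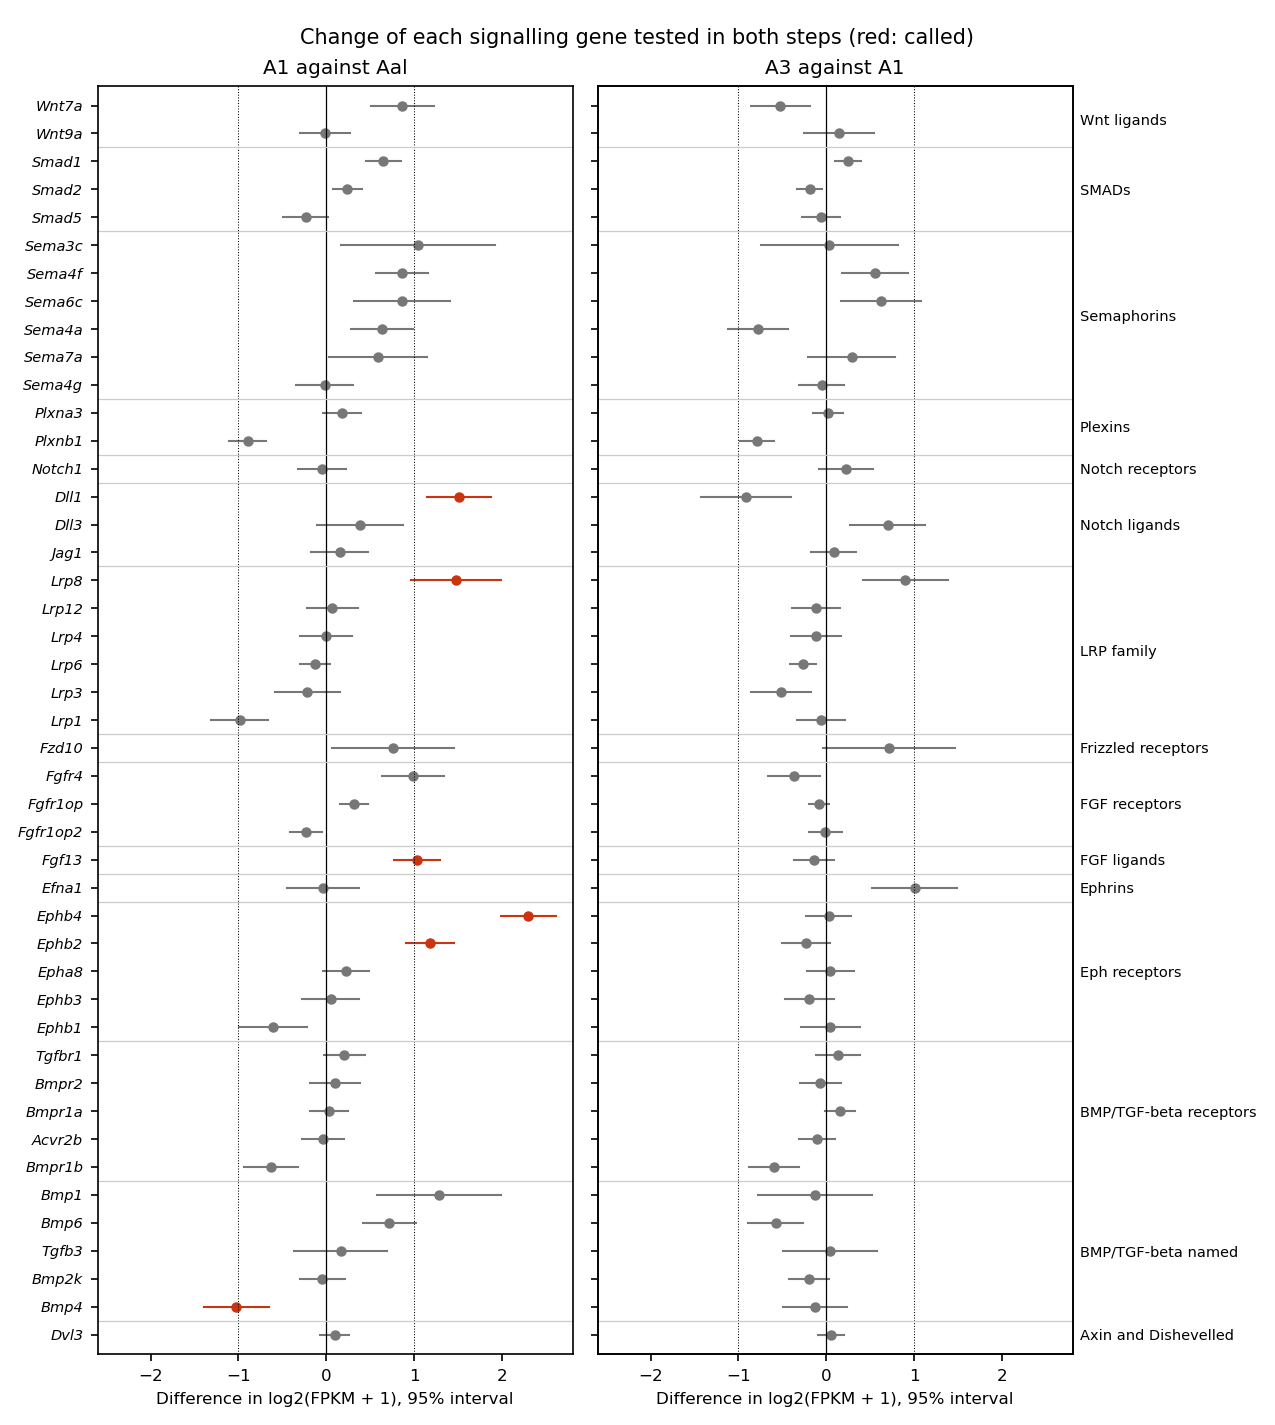
Difference in log2(FPKM + 1) with its 95% interval for each signaling gene tested in both steps, A1 against Aal on the left and A3 against A1 on the right, grouped by family, with dotted lines at the fold threshold and called genes in red. Of the genes shown, 6 are called on the left and 0 on the right, where the value farthest above 0 is that of *Efna1* at 1.01 and the one farthest below is that of *Dll1* at -0.91.

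The Eph receptors, tyrosine kinases that read membrane-bound ephrins on touching cells, held 2 of the 6 calls in A1 against Aal, and *Ephb4* had the highest difference in log2(FPKM + 1) of the 46 genes tested there. *Ephb4* was at 4.42 and 3.39 FPKM in Aal, at 20.2, 25.2 and 23.8 in A1, and at 20.7, 23.5 and 26.4 in A3. Every differentiating library was far above both Aal libraries, and A1 and A3 overlapped. Its log2 fold change was 2.30 (SE 0.13, limma adjusted p 0.000127) in A1 against Aal and 2.32 (SE 0.14, limma adjusted p 1.36e-05) in A3 against Aal, and the call held without any 1 library. From A1 to A3 the difference was 0.02, with a 95% interval from -0.23 to 0.28. *Ephb4* lies on chromosome 5 from 137791337 to 137819897 (mm9) and overlaps *Zan* on the other strand, and as it is not stated whether strand was used when reads were counted, its reads may include some of that gene.

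*Ephb2*, a second B-type receptor, was at 1.98 and 2.11 FPKM in Aal, at 5.78, 6.18 and 5.76 in A1, and at 4.13, 5.32 and 5.29 in A3. It rose at A1 by 1.18 on the log2 scale (SE 0.12, limma adjusted p 0.00037), with the call held without any 1 library. In A3 against Aal its difference of 0.95 (limma adjusted p 0.000725) fell short of the fold threshold, but passed it at 1.05 without A3-1. *Ephb1* lay the other way, at 2.94 and 3.25 FPKM in Aal and 1.26 to 2.06 in A1 and A3, with a difference of -0.56 in A3 against Aal (limma adjusted p 0.0057). *Epha8*, the most abundant Eph receptor in Aal, stayed between 14.3 and 20.4 FPKM in all libraries, and *Ephb3* between 2.24 and 3.28. The 95% interval of the *Ephb3* difference was -0.27 to 0.38 at A1 and -0.44 to 0.14 at A3, both against Aal. Among their ligands, *Efna1* was at 2.77 and 2.35 FPKM in Aal, at 1.85, 2.70 and 2.93 in A1, and at 4.18, 7.33 and 6.78 in A3. The A3 libraries thus stood above all others, but the differences of 1.01 from A1 (limma adjusted p 0.0151) and 0.97 from Aal (limma adjusted p 0.0045) each missed 1 of the 2 thresholds.

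Of the semaphorins, secreted or membrane-bound guidance ligands, 5 were tested in A3 against Aal and 3 were called, all higher. Among all genes tested there, 7.87% were called higher. *Sema6a*, too low for that test, was lower there by limma voom with no filter. *Sema6c* was at 4.71 and 4.76 FPKM in Aal, at 6.68, 9.46 and 13 in A1, and at 14.8, 16.0 and 14.4 in A3, with no overlap between any of the stages. It rose by 1.48 on the log2 scale in A3 against Aal (SE 0.10, limma adjusted p 2.25e-05) and kept this call without any 1 library. In A1 against Aal its difference of 0.86 was not called (limma adjusted p 0.0219), and was called without A1-1 at 1.08. *Sema4f* was at 1.83 and 1.58 FPKM in Aal, at 3.67, 4.16 and 3.92 in A1, and at 4.66, 7.47 and 6.83 in A3, again with no overlap. Its log2 fold change in A3 against Aal was 1.42 (SE 0.19, limma adjusted p 0.000354), also held without any 1 library.

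*Sema3c*, a secreted semaphorin, was at 0.535 and 0.410 FPKM in Aal, at 1.16, 1.40 and 4.36 in A1, and at 2.76, 2.02 and 1.62 in A3. In both comparisons with Aal it passed the filter through the later group alone, and so had to differ. Its difference of 1.04 in A1 against Aal was not called (limma adjusted p 0.0582), and A1-3 lay far above the other A1 libraries. The rise of 1.08 in A3 against Aal was called (SE 0.17, limma adjusted p 0.000874) but ended without Aal-1 (1.14, limma adjusted p 0.0102), without Aal-2 (1.01, limma adjusted p 0.0172) and without A3-1 (0.94). *Sema7a*, a membrane-anchored member and the most abundant semaphorin, was at 7.67 and 7.60 FPKM in Aal, at 8.75 to 17.2 in A1 and at 13.7 to 17.3 in A3, a difference of 0.88 in A3 against Aal (limma adjusted p 0.000444) that stayed under the fold threshold. *Sema4a* was highest in A1, at 1.21 to 1.71 FPKM, against 0.543 to 0.720 in Aal and 0.275 to 0.609 in A3. *Sema4g* stayed between 3.26 and 4.08 FPKM throughout.

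*Plxnb1*, a plexin receptor for class 4 semaphorins, had the lowest difference in log2(FPKM + 1) of the 45 genes tested in A3 against Aal. It was at 33.4 and 37.7 FPKM in Aal, at 17.6, 20.3 and 18.1 in A1, and at 10.6, 9.68 and 10.7 in A3, so that each stage was below the one before with no overlap. The log2 fold change in A3 against Aal was -1.69 (SE 0.09, limma adjusted p 1.15e-05), called without any 1 library. Each step by itself was below the fold threshold, at -0.89 in A1 against Aal (limma adjusted p 0.000392) and -0.79 in A3 against A1 (limma adjusted p 0.00123). The latter was the only difference of a signaling gene in that comparison to reach an adjusted p of at most 0.01. *Plxnb1* spans 108997950 to 109022425 on chromosome 9 (mm9) and overlaps *Gm7628* on the other strand. *Plxna3* stayed between 9.45 and 11.6 FPKM in all libraries. *Plxnc1* was at 0.741 and 0.684 FPKM in Aal, at 0.552, 0.603 and 2.49 in A1 and at 2.83, 2.25 and 1.31 in A3, a difference of 0.84 in A3 against Aal (limma adjusted p 0.00847) under the fold threshold.

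Of the Notch genes, the ligand *Dll1* rose at A1, and *Dll3* was higher in A3 than in Aal. *Dll1* was at 1.61 and 2.16 FPKM in Aal, at 6.35, 8.30 and 6.96 in A1, and at 2.06, 3.82 and 4.52 in A3. All A1 libraries stood above all others, and A3-1 lay within the Aal range. The rise at A1 was 1.51 on the log2 scale (SE 0.15, limma adjusted p 0.000416), called without any 1 library, whereas the difference of -0.91 from A1 to A3 did not pass (limma adjusted p 0.0249). Compared with Aal, the A3 difference was 0.60 with a 95% interval from 0.03 to 1.16. *Dll1* (chromosome 17, 15504318 to 15513836, mm9) overlaps *A930024N18Rik* on the other strand. *Dll3*, which acts within the cell on Notch rather than as a classical ligand, was at 1.24 and 0.902 FPKM in Aal, at 2.32, 1.81 and 1.11 in A1, and at 3.1, 3.14 and 3.94 in A3. The A3 libraries were above all others, and A1-3 lay within the Aal range. It rose by 1.08 in A3 against Aal (SE 0.15, limma adjusted p 0.000447), a call that ended without Aal-2 (0.96) and without A3-3 (0.996).

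The receptor *Notch1* and the ligand *Jag1* were not called in any comparison. *Notch1* ranged from 5.57 to 8.10 FPKM over the 8 libraries and *Jag1* from 5.36 to 7.44. The 95% intervals of their differences in A3 against Aal were -0.18 to 0.53 and -0.05 to 0.53.

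Among the Wnt and Lrp genes, limma called 2 Frizzled receptors of Wnts and 2 relatives of the LDL receptor that are not classical Wnt co-receptors, *Lrp8* and *Lrp1*. *Fzd10* was at 2.59 and 1.39 FPKM in Aal, at 2.49, 5.65 and 4.27 in A1, and at 4.12, 8.92 and 9.57 in A3. The A3 libraries were above both Aal libraries but A3-1 lay within the A1 range. Its rise of 1.47 in A3 against Aal (SE 0.32, limma adjusted p 0.00443) ended without Aal-1 (1.77, limma adjusted p 0.0115), Aal-2 (1.18, limma adjusted p 0.052), A3-2 (1.33, limma adjusted p 0.0128) or A3-3 (1.28, limma adjusted p 0.0115). *Fzd9* was at 0.275 and 0.472 FPKM in Aal, at 0.644, 0.746 and 1.01 in A1, and at 2.13, 1.76 and 1.61 in A3, without overlap between stages. In A3 against Aal it passed the filter through A3 alone, and so had to differ. It rose by 1.04 in A3 against Aal (SE 0.14, limma adjusted p 0.00038), a call that ended without Aal-1 (0.94) and without A3-1 (0.97), and its lowest library held 14 reads.

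*Lrp8*, a receptor for reelin and apolipoprotein E, had the highest difference in log2(FPKM + 1) of the 45 genes tested in A3 against Aal. It was at 2.23 and 1.77 FPKM in Aal, at 5.31, 7.64 and 9.49 in A1, and at 11.4, 16.1 and 16.5 in A3, with no overlap between stages. The log2 fold change was 1.47 in A1 against Aal (SE 0.22, limma adjusted p 0.0017) and 2.37 in A3 against Aal (SE 0.17, limma adjusted p 2.81e-05). The second call held without any 1 library, while the first ended without Aal-1 (1.58, limma adjusted p 0.0172) or Aal-2 (1.36, limma adjusted p 0.0302). From A1 to A3 the difference was 0.90 (limma adjusted p 0.0219), and it was called at 1.07 without A1-3. *Lrp1*, a large endocytic receptor, was highest in Aal, going from 16.2 and 13.7 FPKM in Aal to 7.60, 5.94 and 7.67 in A1 and 6.14, 7.02 and 6.94 in A3. Both Aal libraries stood above all others, and A1 and A3 overlapped. It fell by 1.05 on the log2 scale in A3 against Aal (SE 0.12, limma adjusted p 0.000162), and the call ended without Aal-1 (-0.93) or A3-1 (-0.996). In A1 against Aal the value of -0.99 was just under the fold threshold and crossed it at -1.04 without A1-1 or A1-3. Both *Lrp8* and *Lrp1* overlap other annotated genes on the opposite strand.

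The co-receptor *Lrp6* went from 22.4 and 21.1 FPKM in Aal to 19.1 to 20.6 in A1 and 16.1 to 16.7 in A3. Its difference of -0.39 in A3 against Aal had a limma adjusted p of 0.00321 and stayed well under the fold threshold. *Lrp3* went from 4.15 and 4.72 FPKM in Aal to 1.88 to 2.55 in A3, a difference of -0.73 (limma adjusted p 0.00289). *Lrp4* and *Lrp12* stayed between 1.96 and 2.66 FPKM and between 3.96 and 5.59 FPKM. *Dvl3*, which relays the signal from Frizzled, was at 21.0 to 25.9 FPKM in all 8 libraries, with a 95% interval of -0.05 to 0.35 in A3 against Aal. Of the ligands, *Wnt9a* stayed between 1.40 and 2.76 FPKM, and *Wnt7a* was at 0.209 and 0.150 FPKM in Aal, 0.840, 1.39 and 1.24 in A1, and 0.432, 0.394 and 0.661 in A3. The A1 libraries of *Wnt7a* were above all others, but its difference of 0.86 in A1 against Aal (limma adjusted p 0.00364) was below the fold threshold, and it was called there at a pseudocount of 0.1 and by limma voom on the recovered reads, with or without the filter.

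In the BMP and TGF-beta families, the ligand *Bmp4* and the type I receptor *Bmpr1b* fell, and no other receptor was called. *Bmp4* was at 4.54 and 3.77 FPKM in Aal, at 1.23, 1.53 and 1.86 in A1, and at 0.949, 1.46 and 1.56 in A3, so both later stages were below Aal and overlapped each other. Its log2 fold change was -1.03 in A1 against Aal (SE 0.16, limma adjusted p 0.00192) and -1.16 in A3 against Aal (SE 0.16, limma adjusted p 0.000482). The second call held without any 1 library, and the first ended without Aal-1 (-0.92, limma adjusted p 0.029), Aal-2 (-1.13, limma adjusted p 0.019) or A1-1 (-0.94). *Bmp4* (chromosome 14, 47003195 to 47010344, mm9) overlaps *Gm15217* and *Gm15222* on the other strand. *Bmpr1b* was at 3.09 and 2.94 FPKM in Aal, at 1.47, 1.52 and 1.81 in A1, and at 0.869, 0.721 and 0.584 in A3, each stage below the one before with no overlap. In A3 against Aal *Bmpr1b* passed the filter through Aal alone, and so had to differ. It fell by 1.22 there (SE 0.13, limma adjusted p 0.00013), and could not be tested without either Aal library, since only 1 library then reached 1 FPKM.

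*Bmp6* was at 2.23 and 2.18 FPKM in Aal, at 3.80, 4.41 and 4.62 in A1, and at 3.07, 2.14 and 2.45 in A3. Its A1 libraries lay above all others, with a difference of 0.72 from Aal (limma adjusted p 0.00404) that was below the fold threshold. Among the receptors, *Bmpr1a* ranged from 27.2 to 37.1 FPKM, *Tgfbr1* from 13.3 to 21.0, *Acvr2b* from 11 to 13.4 and *Bmpr2* from 8.06 to 10.6. The 95% intervals in A3 against Aal were -0.06 to 0.43 for *Bmpr1a* and -0.23 to 0.30 for *Bmpr2*, which leave out a change as large as that of *Bmpr1b*. Of the SMADs that carry the signal to the nucleus, *Smad1* was at 10.9 and 12.1 FPKM in Aal, 18.1, 18.3 and 19.6 in A1, and 21.7, 22.1 and 23.1 in A3, without overlap between stages. Its difference in A3 against Aal was 0.89 (limma adjusted p 8.19e-05), under the fold threshold. *Smad5*, also downstream of BMP receptors, was at 10.2 and 11.3 FPKM in Aal and 8.15 to 9.80 in A1 and A3, and *Smad2*, which serves TGF-beta and activin, was at 17.7 to 21.8 throughout.

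*Bmp1*, the metalloprotease, was at 0.939 and 0.465 FPKM in Aal, at 1.93, 2.89 and 5.02 in A1, and at 1.86, 3.02 and 3.54 in A3, so both later stages were above Aal and overlapped. In both comparisons with Aal it passed the filter through the later group alone, and so had to differ. It rose by 1.15 in A3 against Aal (SE 0.22, limma adjusted p 0.00227), which ended without Aal-2 (0.95, limma adjusted p 0.0347). In A1 against Aal its difference of 1.28 just missed the call (limma adjusted p 0.0119), and was called at 1.52 without A1-1 and at 1.00 without A1-3. The kinase gene *Bmp2k* stayed between 6.57 and 9.28 FPKM, and *Tgfb3* between 1.06 and 2.51.

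The FGF family held 1 called gene. *Fgf13* was at 5.83 and 6.24 FPKM in Aal, at 12, 14.4 and 13.9 in A1, and at 13, 12.3 and 11 in A3, above Aal in all 6 differentiating libraries. It rose by 1.03 in A1 against Aal (SE 0.11, limma adjusted p 0.000445), a value close to the fold threshold that fell below it without Aal-1 (0.99), without A1-2 (0.98) and with median-ratio scaling (0.99). In A3 against Aal the difference was 0.89 (limma adjusted p 0.000274). *Fgf13* spans 56315322 to 56821248 on chromosome X (mm9) and overlaps small RNA genes and *Gm14890*. The receptor *Fgfr4* was at 0.526 and 0.734 FPKM in Aal, 1.93, 2.62 and 2.14 in A1, and 1.36, 1.64 and 1.5 in A3. All 6 differentiating libraries were higher than Aal, with a difference of 0.98 in A1 against Aal (limma adjusted p 0.00179) that fell just under the fold threshold. *Fgfr1op* stayed between 35.0 and 46.8 FPKM and *Fgfr1op2* between 23.8 and 30.8. The co-receptor *Gfra2*, which binds neurturin and acts with RET, was at 0.914 and 1.63 FPKM in Aal, 1.13, 0.745 and 0.690 in A1, and 0.636, 0.372 and 0.386 in A3.

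A1-3, the library with far more Sertoli cell RNA than the other A1 libraries, was also the one in which several signaling genes were highest. Its ratio to the mean of A1-1 and A1-2 was 6.84 for the summed Sertoli markers, and exceeded 1.5 for 10 of the 67 genes (14.9%, against 11.4% of all 5736 genes), where the limit of 1.5 was chosen after seeing the values. These were *Wnt6* (7.33), *Plxnc1* (4.31), *Sema3c* (3.41), *Tgfb1i1* (2.63), *Bmp1* (2.08), *Tgfb3* (1.99), *Fzd8* (1.88), *Sema7a* (1.70), *Epha4* (1.61) and *Sema6c* (1.61). For *Ephb4*, *Dll1*, *Ephb2* and *Fgf13* all A1 libraries lay close together. Without A1-3, 9 signaling genes were called in A1 against Aal, 6 of them shared with the full comparison, and 1 (*Lrp8*) in A3 against A1, where 9.7% and 2.45% of all genes tested were called. The A3 libraries held 204 to 384 FPKM of the Sertoli markers against 388 in A1-3, and the part of this RNA in the rises at A3 was not tested.

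**Figure D4:**
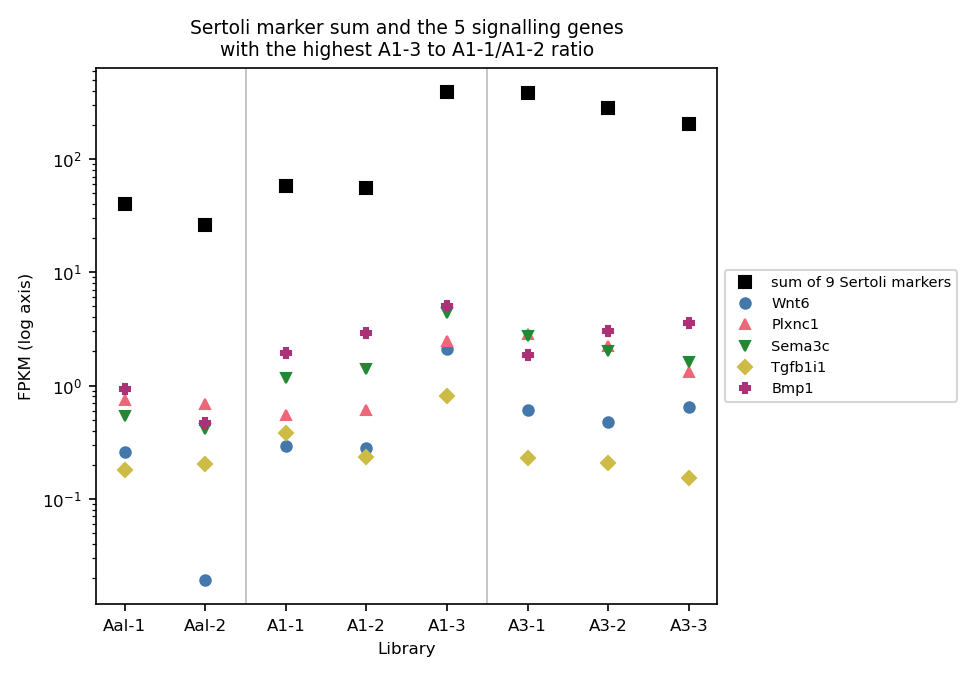
FPKM on a log axis in each library for the sum of 9 Sertoli cell markers (black squares) and the 5 signaling genes with the highest ratio of A1-3 to the other A1 libraries. The Sertoli sum is 26.1 to 57.6 in Aal, A1-1 and A1-2 and 204 to 388 in A1-3 and A3, *Wnt6* and *Tgfb1i1* are highest in A1-3 alone, and *Plxnc1* and *Sema3c* are high in A1-3 and A3.

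Genes that act with these families, from a list of 195 symbols drawn up from general knowledge, numbered 78 in the table. In A1 against Aal the test called 11 of 59, of which 2 were higher and 9 lower (9.15% of all genes tested, 4.19% higher and 4.97% lower). In A3 against A1 it was 4 of 59, 2 in each direction (1.5% of all genes, 0.479% higher and 1.02% lower). In A3 against Aal it was 20 of 61, 9 higher and 11 lower (17.6% of all genes, 7.87% higher and 9.69% lower). Some called partners passed the filter through 1 group alone and so had to differ. These were *Slit1* through Aal in both comparisons with Aal, and *Ntn3*, *Ntn4*, *Inhbb* and *Gdf11* through A3 in A3 against Aal. The partner counts thus describe the genes that could be tested and support no statement about the pathways. Of 10 FGF and GDNF partners tested in A1 against Aal, 4 were called lower and 0 higher, while 5 had a positive difference, among them the adaptors *Frs3* (0.50) and *Grb2* (0.06). The receptor gene *Ret* went from 78.7 and 86.5 FPKM in Aal to 16.5 to 30.1 in A1, a log2 fold change of -1.94 (limma adjusted p 0.000654). *Etv5* (-1.75), *Dusp6* (-1.71) and *Etv4* (-1.03), which respond to this pathway, also fell. These calls ended for *Ret* without Aal-1 (-2.0, limma adjusted p 0.0116) or Aal-2 (-1.87, limma adjusted p 0.0175), for *Etv5* and *Dusp6* without Aal-2 (limma adjusted p 0.0179 and 0.0119), and for *Etv4*, close to the fold threshold, without Aal-1, A1-2 or A1-3 (-0.998, -0.987 and -0.998). Among BMP partners, the transcription regulators *Tgif1* (-2.18) and *Id4* (-1.98) fell at A1, a call that for *Id4* ended without Aal-1 (-1.79, limma adjusted p 0.0222) or Aal-2 (-2.16, limma adjusted p 0.016). *Id2*, a BMP target, was higher in A3 than in Aal by 2.95 (limma adjusted p 2.38e-05). It was at 1.40 and 0.845 FPKM in Aal against 11.5, 18 and 17.1 in A3. In A1 it ranged from 2.61 FPKM in A1-1 to 7.79 in A1-3, the library rich in Sertoli cell RNA. The part of that RNA in its rise was not tested. *Id3*, of the same list, did not rise at A3. Its means in Aal, A1 and A3 were 1.41, 3.97 and 1.32 FPKM, with a difference of -0.05 in A3 against Aal. It too was highest in A1-3, at 5.63 FPKM.

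Wnt partners called were the beta-catenin partner *Tcf7l2*, at 16.2 and 17.7 FPKM in Aal and 3.02 to 4.53 in the later stages (-2.02 in A1 against Aal, limma adjusted p 0.000173), and the planar polarity gene *Prickle1* (-1.25), whose call ended without Aal-1 (-1.28, limma adjusted p 0.0105) or Aal-2 (-1.23, limma adjusted p 0.0147). Of the Notch partners, *Hes5*, a Notch target, was at 2.54 and 2.31 FPKM in Aal, 4.38, 5.29 and 3.78 in A1, and 1.16, 1.65 and 1.74 in A3. Like *Dll1*, its A1 libraries stood above all others, and it fell by 1.12 from A1 to A3 (SE 0.15, limma adjusted p 0.00329). This call ended without A1-1, A1-2, A3-2 or A3-3, with values from -1.22 to -1.01 over the 6 fits that left out 1 library.

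Guidance partners moved both ways. The cytoskeletal effectors *Dpysl3* (1.42) and *Dpysl5* (1.25) rose at A1, and the repellent *Slit1* fell (-1.82), from 3.76 and 5.98 FPKM in Aal to at most 0.797 later. The netrins *Ntn3* (1.49) and *Ntn4* (1.15) were higher in A3 than in Aal, and the exchange factor *Vav3* was lower (-1.13). Both netrins passed the filter through A3 alone. The *Ntn4* call ended without Aal-2 (1.09, limma adjusted p 0.0145) or A3-1 (0.99). *Ntn4* was at 1.61 FPKM in A1-3 and 0.252 and 0.197 in A1-1 and A1-2. The other called partners in A3 against Aal were *Amhr2* (2.59), *Gdf11* (1.80), *Flrt1* (1.72) and *Inhbb* (1.42), which rose, and *Ltbp1* (-1.78) and *Fstl1* (-1.63), which fell. *Amhr2* is itself on the Sertoli list and was at 18.9 FPKM in A1-3, and *Inhbb* at 4.25, against at most 3.29 and 0.774 in the other A1 libraries. *Gdf11* (1.07), *Flrt1* (1.14) and *Fstl1* (-1.09) were also called in A3 against A1. The first pair lost that call without A1-1, A1-2, A3-2 or A3-3, and *Fstl1* without A1-1, A1-3, A3-2 or A3-3.

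**Figure D5:**
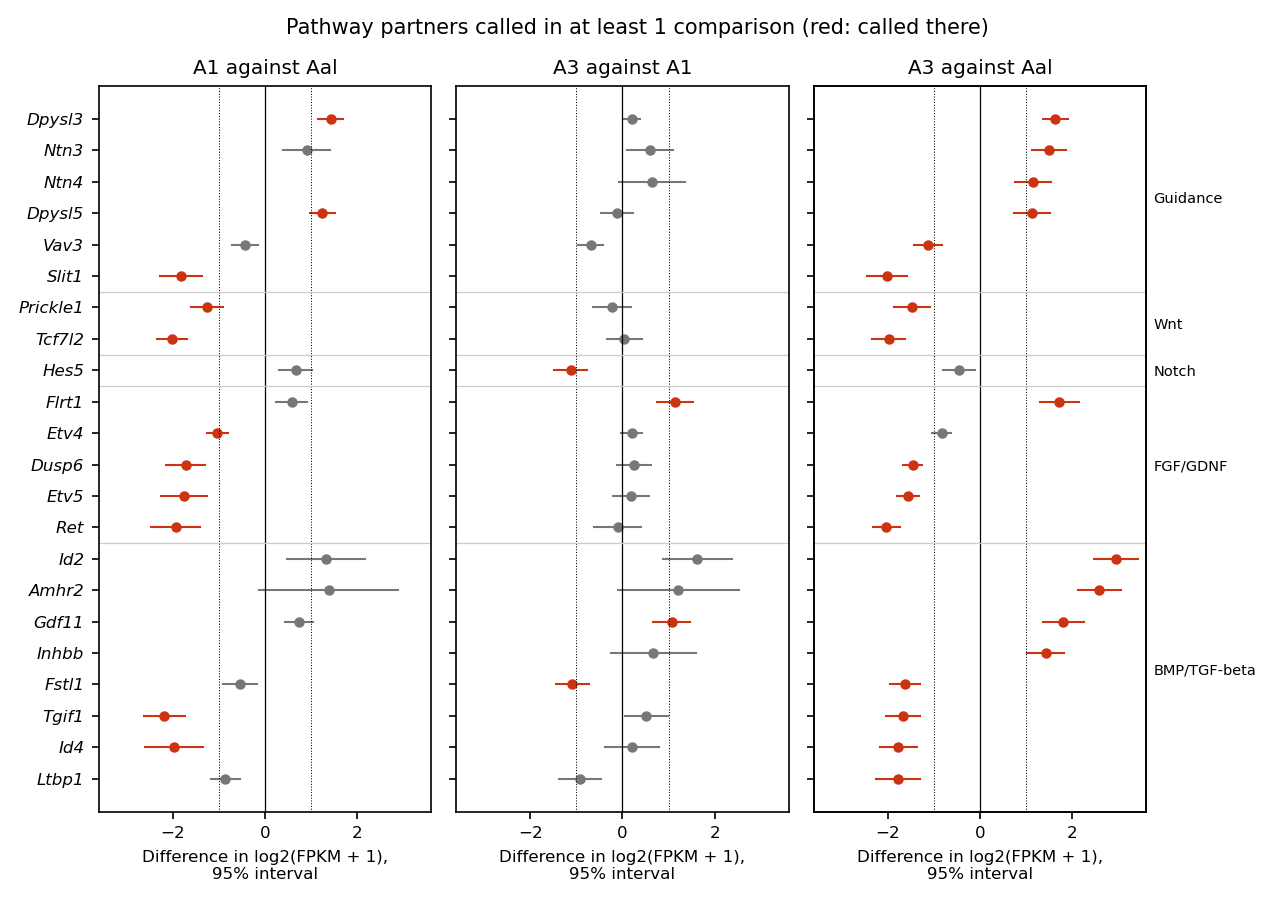
Difference in log2(FPKM + 1) with its 95% interval for the 22 pathway partners called at least once, in the 3 comparisons, grouped by pathway, with dotted lines at the fold threshold and red for a call in that comparison. *Ret*, *Etv5*, *Dusp6*, *Tgif1*, *Id4*, *Tcf7l2* and *Slit1* are lower in both comparisons with Aal, while *Id2* and *Amhr2* have the largest rises in A3 against Aal.

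Signaling genes too low for the main test were read from the recovered reads with limma voom and no filter, an alternative chosen after seeing the data. It called 3 of the 21 untested genes in A1 against Aal, 1 of 20 in A3 against A1 and 9 of 22 in A3 against Aal, beside 13.1%, 3.77% and 25.2% of all 5736 genes. Most of the 5736 had passed the filter, so these are not the shares among low genes, which were not computed. *Epha10* was at 0.0906 and 0.102 FPKM in Aal and 0.279 to 0.669 later, *Plxna4* at 0.105 and 0.0949 in Aal and 0.274 to 0.771 later, and *Wnt9b* at 0.238 and 0.220 in Aal and 0.467 to 0.815 later. All 3 were higher in both comparisons with Aal. *Epha6*, *Fgf15* and *Fzd1* were higher only in the call of A3 against Aal, by 2.02, 2.23 and 1.31 on the log2 scale, with limma voom adjusted p of 0.00547, 0.00834 and 0.00832. *Sema6a* (0.582 and 0.456 FPKM in Aal, 0.115 to 0.184 in A3), *Efna5* (0.756 and 0.772 in Aal, 0.211 to 0.429 in A3) and *Gfra2* were lower there. *Efna5* was also lower in A3 than in A1, where it was at 0.757 to 0.988 FPKM. The other low genes, among them *Fgf2*, *Fgf18*, *Wnt3a*, *Wnt6*, *Wnt8b*, *Wnt11*, *Fzd8*, *Epha4*, *Sema3b*, *Sema3g* and *Tgfb1i1*, were not called by it. *Wnt6* was at 0.0193 FPKM, 1 read, in Aal-2, and in 9 of the 67 genes some library held fewer than 10 reads, where counting error alone is wide.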

How the data were processed

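Bulk RNA-seq of sorted EGFP+ spermatogonia was analysed in 8 libraries (2 Aal, 3 A1, 3 A3), grouped by sample title. Stranded mRNA libraries were read in single-end reads, which the authors trimmed with cutadapt 1.9, aligned to mm9 with STAR 2.5.2b and assigned with featureCounts. The authors deposited FPKM values per gene and library. The annotation, the use of strand and the step to FPKM are not given in the sources used here. 0 columns of per-sample values were left unused.

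Low FPKM values are whole multiples of what 1 read is worth, and 100% of values were rebuilt from whole reads within a relative 1e-06, giving totals of 18276164 to 27316451 reads. Replicates differed by a chi-square of 5.71 to 21.8 per gene, so each library was kept. That the libraries are separate pools comes from the study's methods, and p-values measure the spread between these pools. Two-sided tests used limma 3.58.1 in R 4.3.3 (trend on, pseudocount 1, pairwise fits), checked on simulated data. limma voom on the recovered reads was an alternative, tried beside another pseudocount (0.1), filters (none, 5 FPKM), scalings, thresholds, a fit on all libraries, a replicate block and leaving out each library. The authors used DESeq2 on counts, and a count model does not take FPKM.

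The genes named are those called at least once, the most abundant of each family, every tested signaling gene by its level, and partners called at least once. *Dazl*, the partners *Id3*, *Frs3* and *Grb2*, and the untested low genes were picked with their values known. The signaling genes, lists and tests were chosen with earlier results of these data known. Positions come from GENCODE M1 (65 of 67 signaling genes matched, of which 22 overlap another gene), and promoters from RefSeq.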

Additional observations from a re-analysis of the deposited data

How the results depend on the processing

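Among values of single signaling genes, 723 stayed on their side of the threshold, 26 lost a call, 37 gained one and 7 changed sign. All 7 were small differences in A3 against A1 when 1 library was left out: *Sema3c* ranged from -0.21 to 0.45, *Ephb4* from -0.064 to 0.11 and *Bmp1* from -0.37 to 0.15. With median-ratio scaling *Fgf13* lost its call in A1 against Aal (0.99), and with quantile scaling *Bmp4* did (-0.99). *Sema3c* in A3 against Aal lost its call in the fit on all 8 libraries (1.08, limma adjusted p 0.024).

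In A1 against Aal the 6 calls of signaling genes became 11 at a pseudocount of 0.1, 15 with no fold threshold, 12 with limma voom on recovered reads and 13 with limma voom and no filter, and the 11 partner calls became 22 with no fold threshold and 19 with limma voom. In A3 against A1 the 0 calls became 1 at an adjusted p of 0.05, 1 with no fold threshold, 1 in the fit on all 8 libraries, 3 with limma voom and 4 with limma voom and no filter. The 4 partner calls there became 2 at 5 FPKM, 8 with no fold threshold, 7 with limma voom and 7 with limma voom and no filter. In A3 against Aal the 13 calls became 7 at 5 FPKM, where fewer genes were tested, 23 with no fold threshold and 26 with limma voom and no filter, and the 20 partner calls became 39 with no fold threshold and 39 with limma voom and no filter. Over all genes, 424, 69 and 823 calls became 731, 199 and 1215 with limma voom, 752, 216 and 1447 with limma voom and no filter, 1252, 349 and 2048 with no fold threshold, and, in the first comparisons, 670 and 152 at a pseudocount of 0.1. In A3 against A1 the 69 became 83 at an adjusted p of 0.05 and 75 in the fit on all 8 libraries. At 5 FPKM, 52 of 3146 genes were called in A3 against A1 and 538 of 3230 in A3 against Aal, where 27 signaling genes were tested. Except where stated, the cause was not tested.

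Leaving out 1 library gave 3 to 9, 0 to 1 and 8 to 12 calls of signaling genes in the 3 comparisons, and 5 to 13, 0 to 7 and 19 to 21 calls of partners. Over all genes it gave 179 to 475, 26 to 111 and 597 to 878 calls. The lowest counts of signaling genes came without Aal-1 (3 in A1 against Aal, 8 in A3 against Aal) and without Aal-2 (8 in A3 against Aal). With 1 Aal library left, that library is assumed to vary like the other group. With the replicate number as a block, 9, 0 and 12 signaling genes and 11, 1 and 20 partners were called. Over all genes it was 444, 39 and 800, against 424, 69 and 823 without the block. With the block *Dll3* (0.996) and *Fzd10* (1.28, limma adjusted p 0.0123) lost their calls in A3 against Aal. Deviations of same-numbered libraries correlated at -0.33 to 0.06. With 2 or 3 libraries in a group, such values cannot show whether same-numbered libraries shared a preparation. No pairing is given in the labels, and none was used.

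With 2 Aal libraries, 1 library decides several calls. Below 1 FPKM the depth gives few reads, and the log2(FPKM + 1) scale keeps such genes under the fold threshold. The table holds 34.0% to 34.4% of the reads, so family members outside it were not analysed here.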
